A study of Mus musculus with 29 samples.

Results

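NF-kappaB subunits and inhibitors were followed through the lung methylome as the windows of the gene table that carry the name of 1 of 9 genes. They are the subunit genes Nfkb1, Nfkb2, Rel, Rela and Relb, the inhibitor genes Nfkbia and Nfkbie, the related gene Nfkbiz, and Tnfaip3. These names marked 79 of the 260686 windows, and all 79 could be tested. Nfkb1, the longest gene, held 30 windows, Nfkbiz 12, Relb 8, Rela 7, Rel 5, Tnfaip3 5, and Nfkb2, Nfkbia and Nfkbie 4 each. A window of these genes is a run of 50 or 51 CpG dinucleotides on GRCm38, and its value is the percentage of its cytosines read as methylated (DNA methylation, DNAm). Windows are numbered here from the 5′ end of each gene.

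Lung DNA of 29 BALB/c offspring aged 13 weeks, labelled female (1 Sham library goes against that label, as given below), was read by whole-genome enzymatic methyl-seq, 1 library an animal. Dams received saline (Sham) or fine particulate matter (PM2.5) by the nose before mating, in gestation and until weaning, and the offspring were sensitised and then exposed by aerosol to ovalbumin (OVA), an egg protein that induces allergic airways disease in mice, or received saline. The groups were Sham (saline dam, saline offspring, n = 7), Sham-OVA (n = 7), PM (PM2.5 dam, saline offspring, n = 7) and PM-OVA (n = 8). The labels do not tie libraries to dams or litters, so some may share a dam and p-values measure the spread between these libraries. The tissue was unsorted lung, so a change in the share of a cell type and a change within cells cannot be told apart.

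NF-kappaB is a family of transcription factors that pair with each other and wait in the cytoplasm, held there by IkappaB proteins. Signals from cytokine and pattern-recognition receptors activate IkappaB kinases, the IkappaB is degraded, and the released dimer enters the nucleus and binds kappaB sites at genes of inflammation. Among those genes are the inhibitors themselves, so that Nfkbia, Nfkbie and Tnfaip3 feed back on the pathway. In the lung the pathway is active in both epithelium and leucocytes during allergic inflammation.

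The sequences below are shown because they are stretches of these genes in which the 10-base kappaB consensus, the letters to which NF-kappaB dimers bind, occurred in or beside the windows described. Capitals mark each match, on either strand, and all runs are GRCm38 read 5′ to 3′ on the strand of the gene. The first set is the 250 bases before the GENCODE gene start of Rel (chr11:23770971-23771220, minus strand), Relb (chr7:19629439-19629688, minus), Nfkbia (chr12:55492648-55492897, minus) and Nfkbie (chr17:45555453-45555702, plus), each with a match there. The capitals of Rel hold 2 overlapping matches, and these runs hold 37, 26, 8 and 13 CpGs respectively.
Rel upstream: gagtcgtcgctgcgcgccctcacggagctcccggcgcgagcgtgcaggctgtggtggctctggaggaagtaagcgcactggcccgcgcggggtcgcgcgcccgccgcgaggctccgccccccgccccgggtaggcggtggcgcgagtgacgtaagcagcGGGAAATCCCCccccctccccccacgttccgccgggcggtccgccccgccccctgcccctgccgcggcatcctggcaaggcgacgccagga
Relb upstream: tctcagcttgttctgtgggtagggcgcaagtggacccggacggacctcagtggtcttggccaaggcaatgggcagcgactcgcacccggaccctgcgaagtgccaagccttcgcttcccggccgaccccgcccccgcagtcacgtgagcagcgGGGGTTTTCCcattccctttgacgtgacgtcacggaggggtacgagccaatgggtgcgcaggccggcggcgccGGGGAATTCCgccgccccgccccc
Nfkbia upstream: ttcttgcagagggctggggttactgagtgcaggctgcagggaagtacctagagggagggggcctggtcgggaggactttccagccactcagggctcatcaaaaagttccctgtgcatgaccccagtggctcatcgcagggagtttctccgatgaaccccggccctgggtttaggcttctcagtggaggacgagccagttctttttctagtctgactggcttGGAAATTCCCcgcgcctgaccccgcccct
Nfkbie upstream: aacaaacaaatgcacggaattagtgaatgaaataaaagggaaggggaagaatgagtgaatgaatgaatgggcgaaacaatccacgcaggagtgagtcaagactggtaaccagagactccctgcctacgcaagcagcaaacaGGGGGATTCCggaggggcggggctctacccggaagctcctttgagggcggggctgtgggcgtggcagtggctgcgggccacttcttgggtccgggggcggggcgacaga

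The second set comes from inside the 3 windows whose methylation fell by at least 10 percentage points after OVA, each match with up to 60 bases on both sides. Window 2 of Nfkbie (chr17:45555937-45558520) held 7 matches, which fall in runs starting at 45556564, 45557530, 45557735 and 45557996. Window 3 of Tnfaip3 (chr10:19007783-19011783) held 3, in runs starting at 19008515, 19008776 and 19009371. Window 4 of Nfkbia (chr12:55487532-55490853) held 2, in runs starting at 55488771, which is beyond the annotated end of the gene, and 55490056. These runs hold between 0 and 4 CpGs each.
Nfkbie window 2, run 1: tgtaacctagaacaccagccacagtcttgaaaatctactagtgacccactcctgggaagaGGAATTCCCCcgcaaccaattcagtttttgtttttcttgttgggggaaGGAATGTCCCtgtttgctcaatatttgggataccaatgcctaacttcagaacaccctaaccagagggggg
Nfkbie window 2, run 2: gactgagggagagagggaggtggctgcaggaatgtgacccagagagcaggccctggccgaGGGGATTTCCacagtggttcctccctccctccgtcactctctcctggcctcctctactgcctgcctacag
Nfkbie window 2, run 3: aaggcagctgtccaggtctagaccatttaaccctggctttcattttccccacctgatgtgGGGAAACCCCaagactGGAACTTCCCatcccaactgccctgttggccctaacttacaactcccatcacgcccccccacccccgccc
Nfkbie window 2, run 4: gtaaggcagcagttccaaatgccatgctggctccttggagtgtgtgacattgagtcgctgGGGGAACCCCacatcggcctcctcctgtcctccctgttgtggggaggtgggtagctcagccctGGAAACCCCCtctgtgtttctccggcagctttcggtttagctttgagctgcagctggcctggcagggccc
Tnfaip3 window 3, run 1: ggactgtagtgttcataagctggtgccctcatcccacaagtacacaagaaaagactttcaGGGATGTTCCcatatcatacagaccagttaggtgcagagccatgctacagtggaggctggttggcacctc
Tnfaip3 window 3, run 2: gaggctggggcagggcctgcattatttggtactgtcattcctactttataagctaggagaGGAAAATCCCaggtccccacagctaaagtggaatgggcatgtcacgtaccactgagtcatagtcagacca
Tnfaip3 window 3, run 3: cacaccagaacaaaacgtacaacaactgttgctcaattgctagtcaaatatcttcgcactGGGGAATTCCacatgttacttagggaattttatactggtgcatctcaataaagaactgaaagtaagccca
Nfkbia window 4, run 1: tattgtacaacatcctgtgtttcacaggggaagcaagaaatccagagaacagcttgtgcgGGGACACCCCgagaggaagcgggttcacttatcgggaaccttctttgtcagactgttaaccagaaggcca
Nfkbia window 4, run 2: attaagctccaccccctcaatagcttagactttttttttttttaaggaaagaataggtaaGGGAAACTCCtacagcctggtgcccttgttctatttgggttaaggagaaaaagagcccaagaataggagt

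The consensus is short and common. It was present in 49.3% of all tested windows and in 38 of the 79 windows of these genes (48.1%). A count as high as that of Nfkbie window 2 was rare, however, since 6 of the 14090 windows within 10% of its length (0.0426%) held 7 or more, while 44.8% held any. In the RefSeq promoter table (GRCm38.p6, 250 bases before to 50 after a start), 2779 of 32851 entries (8.46%) held a match. Of the 6 members with an entry, Nfkb2, Nfkbia, Nfkbie, Rel and Tnfaip3 held a match in at least 1 entry and Rela did not. Members are counted here by gene and the 8.46% by entry, and Nfkb2 and Tnfaip3 had more than 1 entry. A match is a description of letters and was not read as a bound site.

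Mean methylation over all windows lay between 67.8% and 70.2% in every library. One Sham library, replicate 1, stood apart in the sex chromosomes, with values in 1224 of 1230 Y windows against 29 to 46 in the other libraries, although the series is labelled female. Leaving it out gave 32 windows of these genes past an adjusted p of 0.05 for OVA in Sham in place of 31, and 2 in place of 2 past 10 points. Windows of 11 leucocyte marker genes moved with OVA too: their mean per library was 69.8% to 71.3% in Sham and 67.5% to 69.0% in Sham-OVA, and 70.6% to 71.7% in PM and 67.7% to 69.2% in PM-OVA, so neither pair of groups overlapped. In that list 17 of 50 windows fell and 10 rose in Sham offspring, and 19 fell and 8 rose in PM offspring. Of 111 windows of 12 lung epithelial and endothelial markers, 42 rose and 9 fell in Sham offspring and 34 rose and 14 fell in PM offspring. The mean per library of these markers overlapped in both pairs of groups. It was 63.1% to 65.3% in Sham and 65.0% to 66.9% in Sham-OVA, and 63.1% to 65.8% in PM and 64.8% to 66.7% in PM-OVA. Over all windows 13.3% rose and 22.3% fell in Sham offspring, and 9.26% rose and 34.8% fell in PM offspring. The part of cell composition in the results on NF-kappaB genes was not tested.

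OVA challenge changed methylation at 31 of the 79 windows in offspring of Sham dams (39.2%, with 35.6% over all 259167 tested windows) and at 35 in offspring of PM2.5 dams (44.3%, with 44.1% over all windows), as judged by limma with an adjusted p under 0.05. Both shares lie near the background. Among them 10 rose (13.3% of all windows rose) and 21 fell (22.3% over all windows) in Sham offspring, and 8 rose (9.26% over all) and 27 fell (34.8% over all) in PM offspring. After centring, in which each library's median difference from the mean over libraries was subtracted, these counts became 14 risen and 21 fallen in Sham offspring, and 20 and 20 in PM offspring, so the excess of falls in PM offspring depends on the scaling. The median difference over the 79 windows was -0.25 percentage points in Sham offspring and -0.45 in PM offspring, beside -0.41 and -1.03 over all windows.

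The 2 maternal arms share no library. Of the 79 windows, 26 passed the test in both arms, each in 1 direction (32.9%, with 27.3% over all windows); 21 fell in both and 5 rose in both. A further 5 windows passed in Sham offspring alone and 9 in PM offspring alone, and 39 passed in neither. The libraries of challenged and unchallenged animals did not overlap at 14 windows in Sham offspring (8.58% over all windows) and at 18 in PM offspring (12.0% over all windows).

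**Figure D1:**
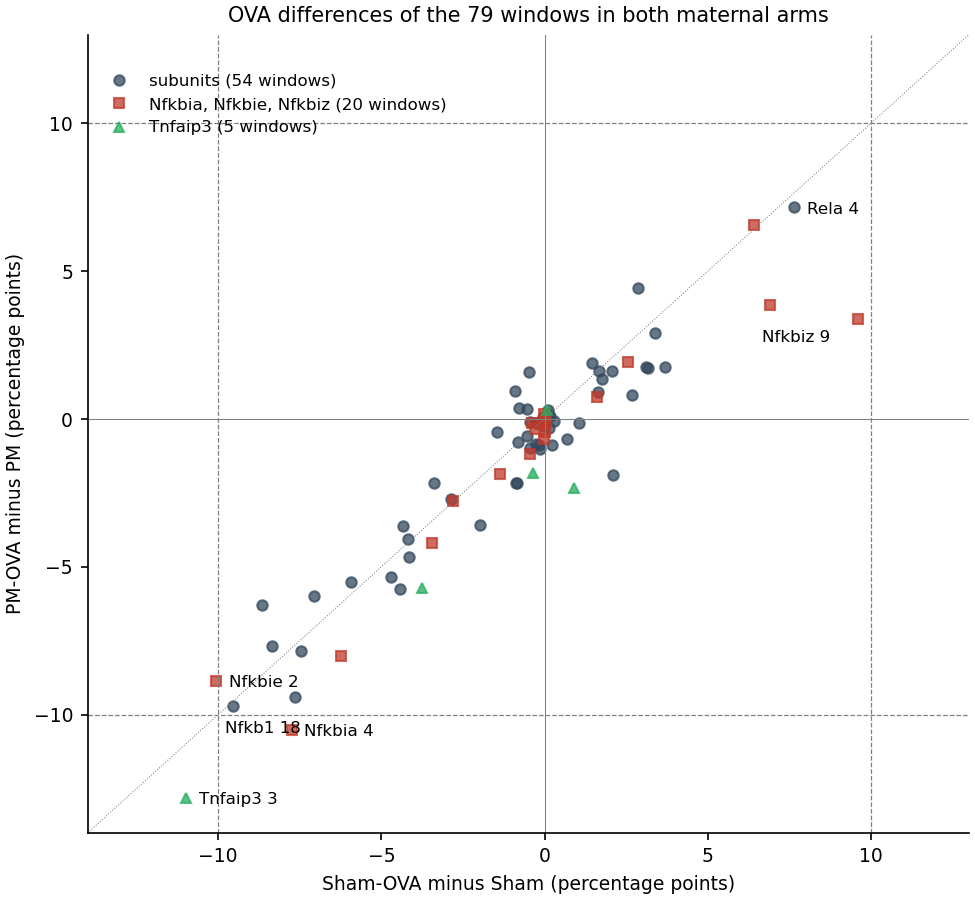
Difference in methylation after OVA for each of the 79 windows, in percentage points, in offspring of Sham dams (x axis) and of PM2.5 dams (y axis); symbols give the gene class, dashed lines mark 10 points and the dotted line marks equal differences. Tnfaip3 window 3 lies beyond 10 points on both axes (-10.98 and -12.8), and Nfkbiz window 9 lies farthest to the right (9.60 and 3.38).

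Differences of at least 10 points with an adjusted p under 0.05, called differentially methylated regions (DMRs), were few. Sham offspring had 2 (0.775% of all windows were DMRs, and 0.296% were DMRs with a fall), in Tnfaip3 and Nfkbie, and PM offspring had 2 (0.584% of all windows, and 0.321% with a fall), in Tnfaip3 and Nfkbia. All of them were falls. The subunit window nearest to the limit, Nfkb1 window 18, had differences of -9.54 and -9.71 points. With each library centred, the Sham arm kept Tnfaip3 window 3 and gained a rise at Nfkbiz window 9, while the PM arm kept Tnfaip3 alone.

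Tnfaip3 encodes a ubiquitin-editing enzyme that takes down the receptor complexes upstream of the IkappaB kinases. Its window 3 (chr10:19007783-19011783) is centred 5874 bp from the gene start and spans 1004 exonic and 2997 intronic bases. Methylation there ranged from 61.2% to 65.8% in Sham (median 63.5%) and from 47.2% to 58.1% in Sham-OVA (median 51.8%). In PM it ranged from 61.5% to 64.3% (median 63.5%) and in PM-OVA from 46.1% to 53.5% (median 51.0%). Every challenged library was below every unchallenged library in both arms. The mean fell from 63.5% ± 1.86 (SD, n = 7) to 52.5% ± 4.16 (n = 7) in Sham offspring, a log2 ratio of methylated to unmethylated signal of -0.64 (SE 0.0815, limma adjusted p = 9.79e-07). It fell from 63.3% ± 0.894 (n = 7) to 50.5% ± 2.83 (n = 8) in PM offspring, a log2 ratio of -0.74 (SE 0.0789, limma adjusted p = 4.30e-08). The window kept a fall of at least 10 points whichever 1 library of the arm was left out, with differences of -11.9 to -10.1 in Sham offspring and -13.2 to -12.2 in PM offspring.

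The neighbouring windows of Tnfaip3 showed how the change was spread along the gene. Window 1, which holds the gene start, was nearly free of methylation, with group means from 0.103% in PM to 0.450% in Sham-OVA. In PM offspring it passed the test for a rise of 0.317 points (limma adjusted p = 0.0338), a call that was lost with untransformed percentages and without any 1 of PM replicates 2, 3 and 7 and PM-OVA replicates 4, 6, 7 and 8. Window 2 fell from 19.5% to 15.7% in Sham offspring (adjusted p = 5.63e-06) and from 20.3% to 14.6% in PM offspring (adjusted p = 4.70e-09). Beyond window 3 the gene was highly methylated. Windows 4 and 5 fell in PM offspring, with differences of -1.82 and -2.35 points (adjusted p = 0.0249 and 0.00583), while their differences in Sham offspring were -0.362 and 0.903 (adjusted p = 0.705 and 0.344).

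Nfkbie encodes IkappaB epsilon, an inhibitor that is itself induced by NF-kappaB and holds dimers with Rel and Rela. Its window 2, the window with 7 kappaB consensus matches, begins 3′ of the gene start, is centred 1525 bp from it, and spans 404 exonic and 2180 intronic bases. Methylation there was low even without challenge, at 21.9% to 25.2% in Sham (median 23.3%) and 18.7% to 25.1% in PM (median 22.9%). It was 9.68% to 17.99% in Sham-OVA (median 13.3%) and 11.96% to 15.9% in PM-OVA (median 13.4%). Challenged and unchallenged libraries did not overlap in either arm. The mean fell from 23.4% ± 1.26 (n = 7) to 13.4% ± 2.71 (n = 7) in Sham offspring, a log2 ratio of -0.96 (SE 0.103, limma adjusted p = 8.55e-08), the largest fall on that scale among the 79 windows in Sham offspring. In PM offspring it fell from 22.7% ± 1.94 (n = 7) to 13.8% ± 1.54 (n = 8), a log2 ratio of -0.83 (SE 0.0998, limma adjusted p = 2.60e-07). The threshold of 10 points separates these arms only by a small step, since the differences were -10.1 and -8.85 points and the Sham difference lay between -10.8 and -9.43 when each library was left out, under 10 points in 5 of 14 cases, without Sham replicate 3 or 6 or Sham-OVA replicate 2, 4 or 6.

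Nfkbie changed along most of its length. Window 3, centred 4166 bp from the start, fell from 77.9% to 71.7% in Sham offspring (adjusted p = 0.000118) and from 79.9% to 71.9% in PM offspring (adjusted p = 1.16e-06). Window 4, which covers the 3′ end and overlaps Slc35b2 as well, fell by 3.45 points (adjusted p = 0.00489) and by 4.19 points (adjusted p = 0.000501). Window 1, which reaches upstream over the promoter sequence printed above, stayed between group means of 19.4% and 19.6%, and its differences were 0.0216 and 0.0460 points (adjusted p = 0.975 and 0.952).

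Nfkbia encodes IkappaB alpha, the inhibitor that is degraded and remade fastest after stimulation. The DMR was its window 4, centred 3455 bp from the gene start, of which 1444 bases lie in the gene and the rest lie beyond its 3′ end. Values ran from 50.3% to 55.3% in Sham (median 51.9%), 39.1% to 51.6% in Sham-OVA (median 43.7%), 47.2% to 57.3% in PM (median 53.5%) and 40.8% to 44.4% in PM-OVA (median 42.2%). The groups overlapped in Sham offspring, where Sham-OVA replicate 7 reached the level of unchallenged lungs, and did not overlap in PM offspring. The mean fell from 52.2% ± 1.61 (n = 7) to 44.4% ± 4.08 (n = 7) in Sham offspring (log2 ratio -0.44, SE 0.0813, limma adjusted p = 0.000119). In PM offspring it fell from 52.9% ± 3.11 (n = 7) to 42.4% ± 1.34 (n = 8) (log2 ratio -0.60, SE 0.0787, limma adjusted p = 9.69e-07). The difference of -10.5 points in PM offspring was -9.79 without PM replicate 1, under the 10-point limit. Windows 1 to 3 of Nfkbia, which run from upstream of the start into the gene, did not pass the test in either arm; in Sham their means were 14.0%, 0.0351% and 4.73%.

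**Figure D2:**
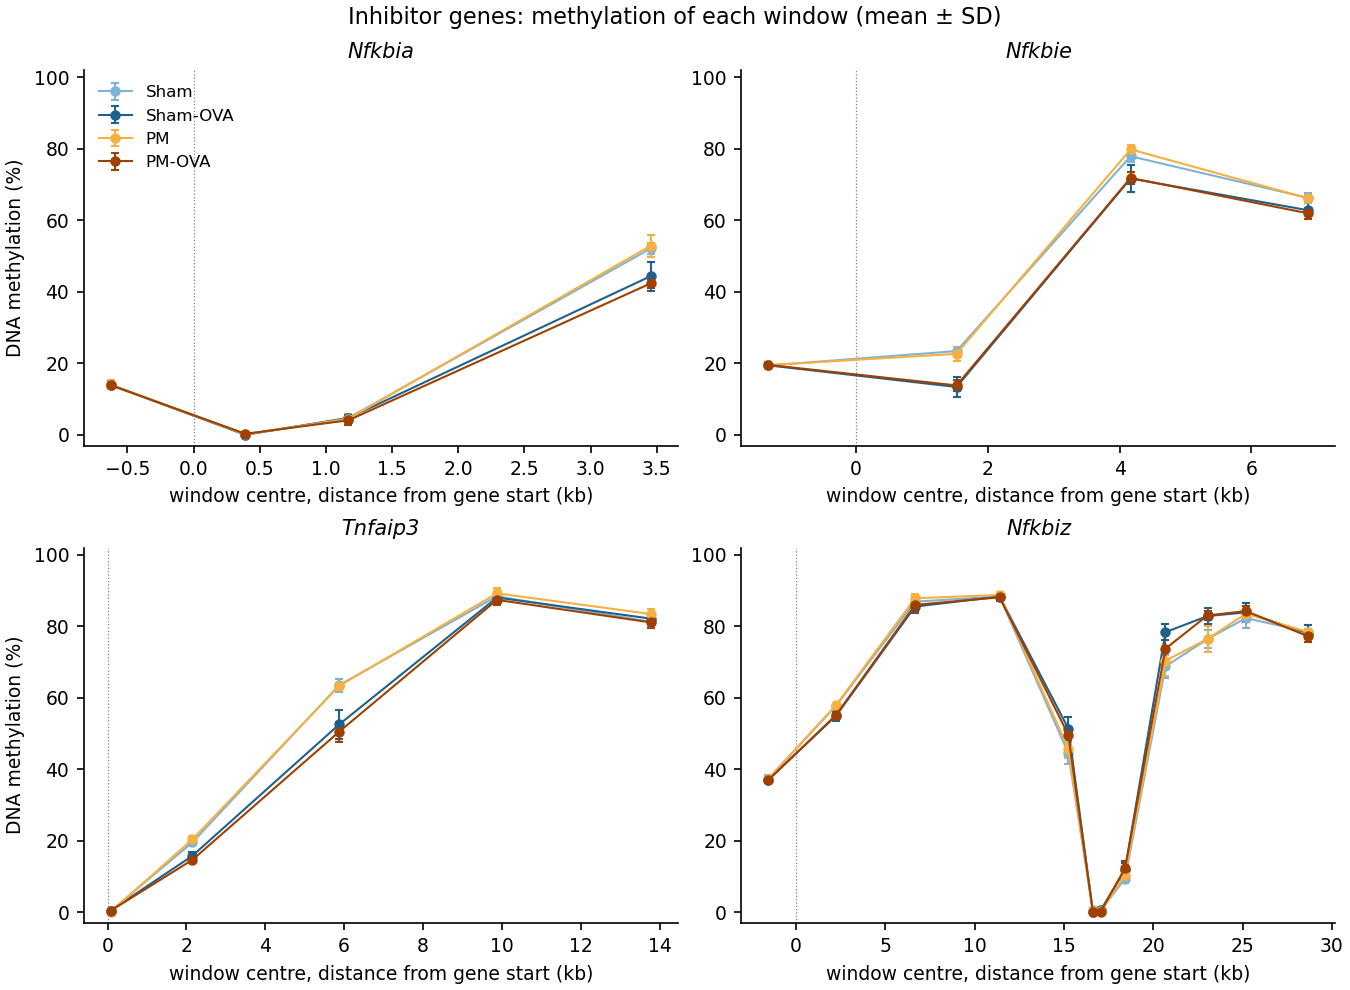
Mean methylation (± SD over the 7 or 8 libraries of a group) of each window of Nfkbia, Nfkbie, Tnfaip3 and Nfkbiz against the distance of the window's centre from the gene start, in kb. The challenged groups (dark colours) run below the unchallenged ones at Nfkbia window 4, Nfkbie windows 2 to 4 and Tnfaip3 windows 2 and 3, and above them at Nfkbiz windows 9 and 10.

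Nfkbiz encodes IkappaB zeta, a nuclear IkappaB protein that works as a cofactor of NF-kappaB at inflammatory genes in place of holding it in the cytoplasm. Of its 12 windows, 4 rose and 1 fell in Sham offspring, and 3 rose and 1 fell in PM offspring (41.7% and 33.3% passed, with 35.6% and 44.1% over all windows), the other windows not passing the test. Its unmethylated stretch was not at the annotated gene start but at windows 6 and 7, centred 16617 and 17053 bp into the gene, where Sham means were 0.488% and 0.461% and window 6 holds an annotated transcript start. The rises flanked that stretch. Window 5, upstream of it, rose from 44.5% ± 3.05 to 51.4% ± 3.25 in Sham offspring (adjusted p = 0.00031) and from 45.8% ± 2.67 to 49.6% ± 1.41 in PM offspring (adjusted p = 0.0208). Window 8, just downstream, rose from 9.32% to 11.9% (adjusted p = 0.00698) and from 10.3% to 12.2% (adjusted p = 0.0415). Window 10 rose by 6.41 points (adjusted p = 0.000183) and 6.57 points (adjusted p = 8.19e-05).

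The largest rise of the gene in Sham offspring was at Nfkbiz window 9 (chr16:55817105-55819327), 941 of whose 2223 bases are coding. Methylation ranged from 64.0% to 73.7% in Sham (median 67.9%) and from 74.4% to 80.6% in Sham-OVA (median 79.5%), with no overlap. It ranged from 64.6% to 75.1% in PM (median 70.6%) and from 67.3% to 81.5% in PM-OVA (median 73.2%), where the groups overlapped. The mean rose from 68.7% ± 3.19 to 78.3% ± 2.27 in Sham offspring (log2 ratio 0.70, SE 0.128, limma adjusted p = 0.000121), and was 70.3% ± 4.16 and 73.7% ± 4.15 in PM offspring (log2 ratio 0.24, SE 0.124, limma adjusted p = 0.118, passing without PM-OVA replicate 3). The difference between arms was -6.21 points, and its test did not pass (interaction log2 ratio -0.46, 95% interval -0.82 to -0.09 before adjustment, limma adjusted p = 0.616).

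**Figure D3:**
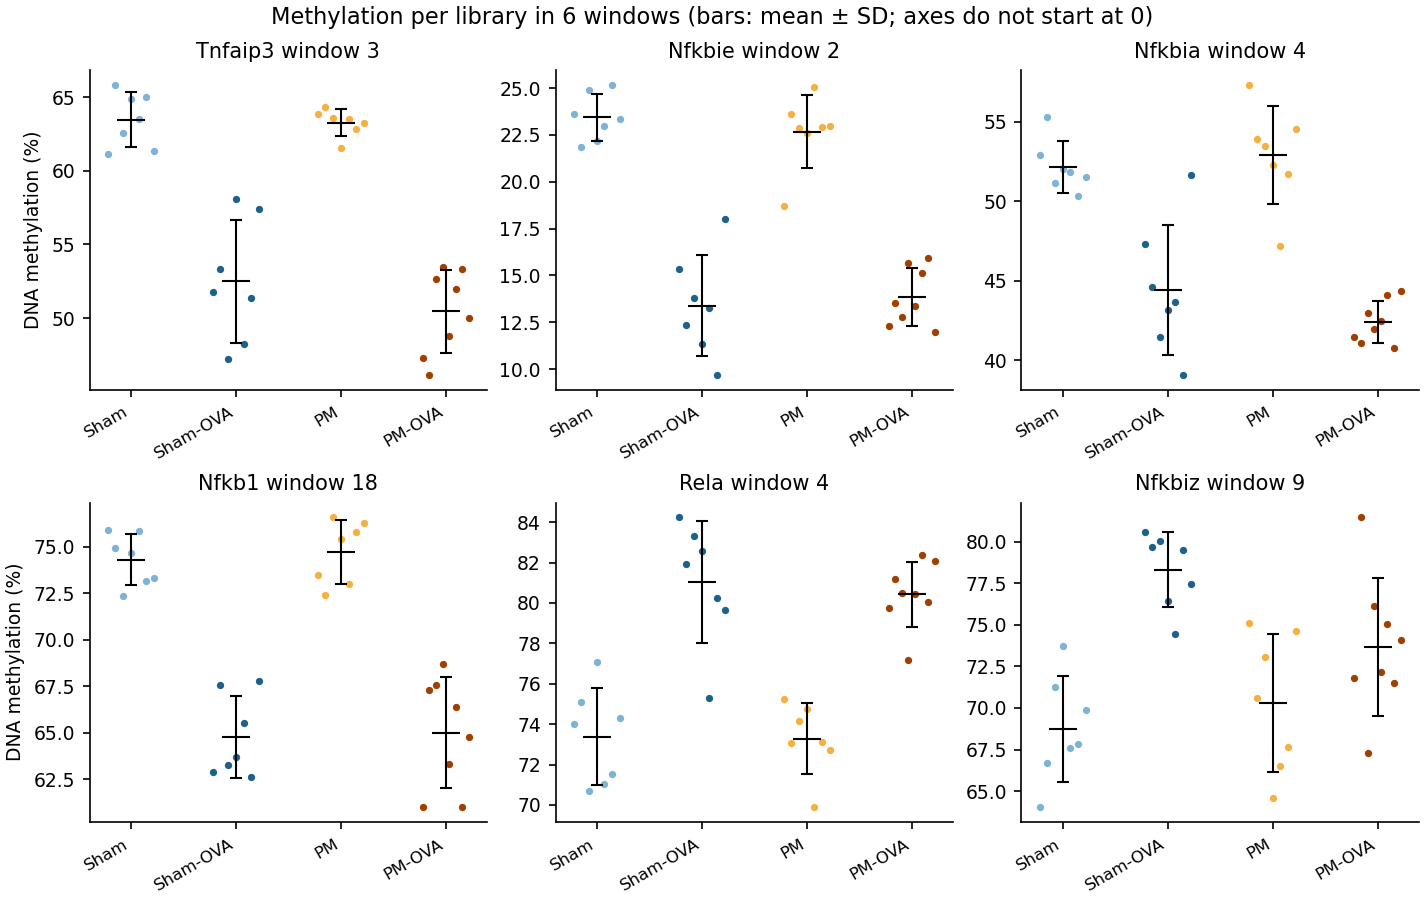
Methylation (%) of single libraries in 6 windows, by group, with the mean ± SD as black bars. In Tnfaip3 window 3, Nfkbie window 2 and Nfkb1 window 18 every OVA library lies below every saline library of the same maternal arm, while the means of Rela window 4 and Nfkbiz window 9 are higher after OVA, with overlap in 1 arm each.

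Nfkb1, which holds 30 of the 54 subunit windows, encodes a precursor that is processed to a DNA-binding subunit without an activation domain of its own. In Sham offspring 11 of its 30 windows fell and 3 rose (46.7% passed, with 35.6% over all windows), and in PM offspring 13 fell and 0 rose (43.3% passed, with 44.1% over all windows). The PM share was thus near the background, and Rel had a higher share in Sham offspring (60%, 3 of 5 windows) and Nfkb2 in PM offspring (75%, 3 of 4). All 11 fell in both arms, with differences of -9.54 to -3.40 points in Sham offspring and of -9.71 to -2.16 points in PM offspring. Of the others, 14 windows passed in neither arm, with differences of -1.47 to 2.08 points in Sham offspring and -1.88 to 1.89 in PM offspring. Median Sham methylation was 76.4% in the 11 and 79.5% in the 14, median length was 3581 and 3385 bp, and 3 of the 11 and 7 of the 14 held a kappaB consensus match.

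Nfkb1 window 18 (chr3:135627402-135630565), an intronic window centred 62564 bp from the gene start, had the largest fall of Nfkb1 in percentage points. Values ran from 72.4% to 75.9% in Sham (median 74.7%) and from 62.6% to 67.8% in Sham-OVA (median 63.7%). They ran from 72.4% to 76.6% in PM (median 75.4%) and from 61.0% to 68.7% in PM-OVA (median 65.6%). Neither arm showed any overlap. The mean fell in both, with a difference of -9.54 points in Sham offspring (log2 ratio -0.64, SE 0.0750, limma adjusted p = 3.26e-07) and of -9.71 points in PM offspring (log2 ratio -0.65, SE 0.0727, limma adjusted p = 8.93e-08), just under the 10-point limit in both. It passed that limit without Sham-OVA replicate 2 or 7 (down to -10.05 points) in Sham offspring, and without PM replicate 2 or 5 or PM-OVA replicate 2, 3 or 4 (down to -10.2 points) in PM offspring. Window 4 of Nfkb1, in an intron 4248 bp from the start, fell from 72.0% to 64.4% (adjusted p = 4.48e-06) and from 72.2% to 62.8% (adjusted p = 1.00e-07). At the 5′ end, window 3 fell from 10.1% to 6.73% (adjusted p = 0.000187) and from 8.85% to 6.69% (adjusted p = 0.00308), next to windows 1 and 2, with Sham means of 0.283% and 0.0296%. The last 4 windows of the gene, 27 to 30, passed in neither arm.

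**Figure D4:**
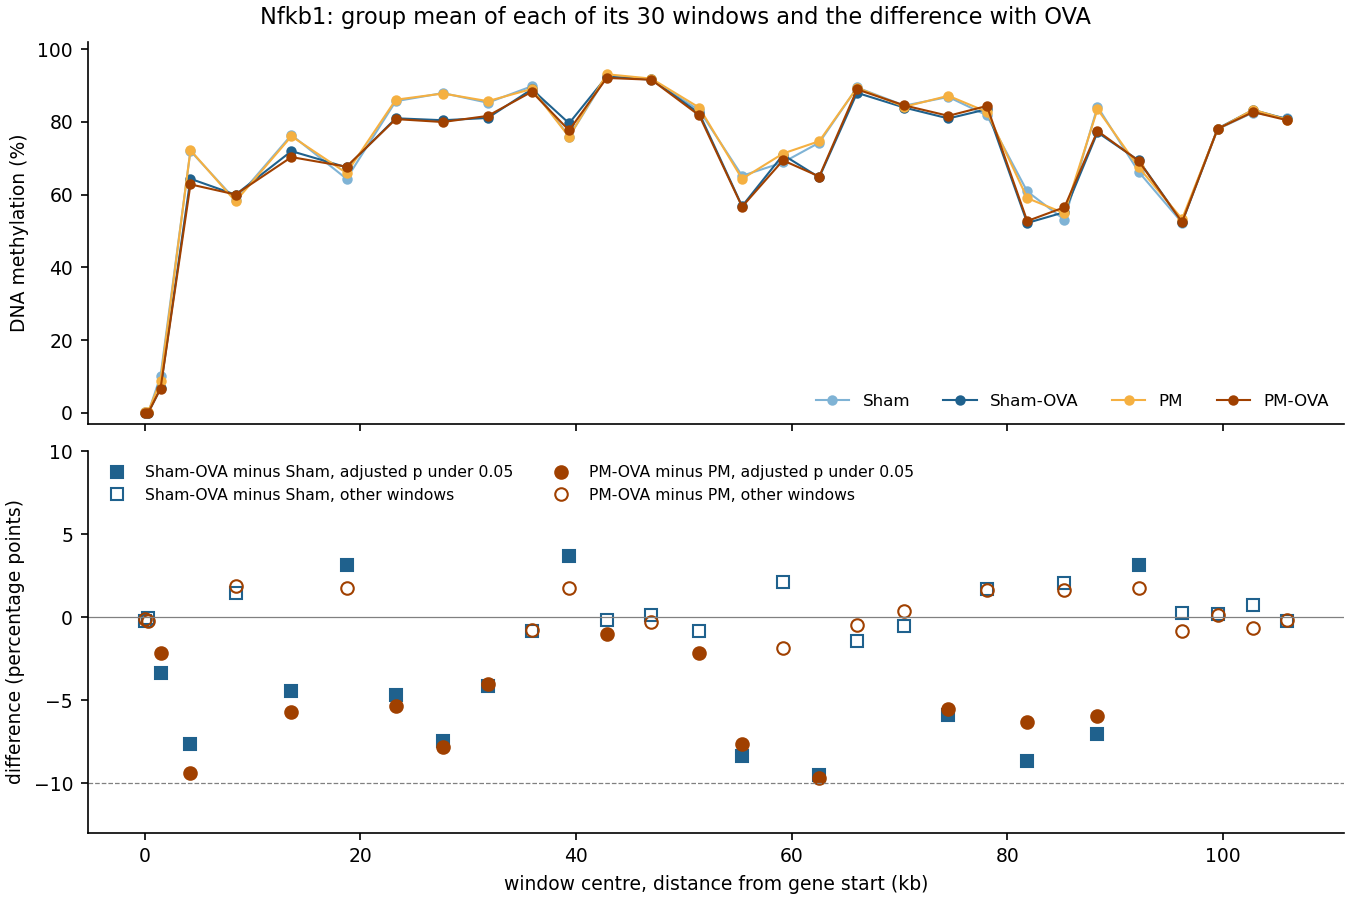
Nfkb1: group means of methylation (upper plot, %) and OVA differences (lower plot, percentage points) of its 30 windows against distance from the gene start in kb; filled symbols have an adjusted p under 0.05 and the dashed line marks a fall of 10 points. The 11 windows that fell in both arms lie along the gene among windows that did not, 3 of which rose in Sham offspring, and reach -9.54 in Sham and -9.71 in PM offspring at window 18.

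Rel encodes a subunit used mainly by lymphocytes and myeloid cells. Its windows 2 and 3, which cover the first part of the gene body, fell in both arms with no overlap between groups. Window 3 (chr11:23751024-23761050) ran from 86.1% to 88.9% in Sham (median 87.8%), from 82.1% to 84.9% in Sham-OVA (median 84.3%), from 86.6% to 88.5% in PM (median 87.3%) and from 80.4% to 85.3% in PM-OVA (median 82.4%). The difference was -4.16 points in Sham offspring (log2 ratio -0.47, SE 0.0637, limma adjusted p = 2.63e-06) and -4.68 points in PM offspring (log2 ratio -0.50, SE 0.0617, limma adjusted p = 3.96e-07). Window 2 fell too, with differences of -4.33 and -3.63 points (adjusted p = 3.83e-05 and 0.000153). Window 4 rose by 2.67 points in Sham offspring (adjusted p = 0.0112), with a difference of 0.798 points in PM offspring (adjusted p = 0.431).

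Rela, which encodes the main transactivating subunit of the canonical dimer, moved the other way at 1 of its 7 windows. Window 4 (chr19:5639319-5641330), centred 2841 bp from the start, ran from 70.7% to 77.1% in Sham (median 74.0%) and from 75.3% to 84.3% in Sham-OVA (median 81.9%), so that the groups overlapped. In PM it ran from 69.9% to 75.3% (median 73.1%) and in PM-OVA from 77.2% to 82.4% (median 80.5%), with no overlap. The mean rose by 7.65 points (log2 ratio 0.62, SE 0.0930, limma adjusted p = 9.67e-06) and by 7.16 points (log2 ratio 0.57, SE 0.0900, limma adjusted p = 1.39e-05). The other 6 windows of Rela passed in neither arm, with differences between -0.987 and 0.960 points.

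Relb and Nfkb2 encode the partners of the non-canonical pathway, and their windows moved in both directions. Relb window 3 rose from 77.6% ± 1.25 to 81.0% ± 1.73 in Sham offspring (adjusted p = 0.00228) and from 77.7% ± 1.33 to 80.6% ± 1.79 in PM offspring (adjusted p = 0.00459). Relb window 4 (chr7:19619575-19621267) rose in PM offspring, from 57.8% to 63.9% in PM (median 60.7%) to 62.9% to 68.3% in PM-OVA (median 65.0%), by 4.43 points (limma adjusted p = 0.00329). In Sham offspring it ran from 54.2% to 63.1% in Sham (median 59.6%) and from 60.2% to 64.7% in Sham-OVA (median 61.5%), and the difference of 2.85 points did not pass (limma adjusted p = 0.0749), though it passed without Sham replicate 1 or 4. Relb window 6 went the other way, from 82.9% to 79.3% in PM offspring (-3.59 points, limma adjusted p = 0.000922), with -1.96 points in Sham offspring (adjusted p = 0.0721). Nfkb2 window 1 (chr19:46306088-46308423), the window of that gene nearest to its start, ran from 86.4% to 89.3% in Sham (median 89.1%), 81.6% to 88.2% in Sham-OVA (median 85.4%), 85.7% to 88.9% in PM (median 88.1%) and 82.9% to 88.9% in PM-OVA (median 84.6%). The groups overlapped in both arms, and the mean fell by 2.87 points (limma adjusted p = 0.00798) and by 2.71 points (limma adjusted p = 0.00896, a call lost with each library centred). Nfkb2 window 2 fell in PM offspring (-2.18 points, adjusted p = 0.00181) and window 3 rose there (1.59 points, adjusted p = 0.0370), while their Sham differences of -0.866 and -0.473 points did not pass (adjusted p = 0.230 and 0.586).

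The windows holding the starts of 5 of these genes were nearly unmethylated before and after OVA. Of the 8 gene starts that lie in a window named for the gene, 5 lay in windows under 10% in Sham, those of Nfkb1, Rel, Rela, Relb and Tnfaip3. The start of Nfkb2 lies in none of its windows and so has no value here. Sham libraries ranged from 0% to 1.77% in Nfkb1 window 1, from 0% to 1.41% in Rel window 1, from 0.667% to 2.85% in Rela window 1 and from 0% to 1.14% in Tnfaip3 window 1, and all 7 were at 0% in Relb window 1. The highest value in a PM-OVA library at these starts was 1.77%, in Rela. The windows holding the starts of Nfkbia (14.0% in Sham, 1655 bp), Nfkbie (19.4%, 3119 bp) and Nfkbiz (37.4%, 3324 bp) were longer than those of the other 5 genes (360 to 948 bp), and each gives a single mean over its length. In all, 13 of the 79 windows were under 10% in Sham (16.5%, with 6.91% of all windows), and 1 of them passed the test in Sham offspring (Nfkbiz window 8) and 2 in PM offspring (Nfkbiz window 8 and Tnfaip3 window 1), where 21.6% and 19.9% of all windows under 10% passed.

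Maternal PM2.5 exposure on its own was not associated with a called difference at any of these windows. With no OVA (PM against Sham), 0 of the 79 passed the adjusted test (0% over all windows), and 2 had an unadjusted p under 0.05 (5.79% over all windows), with differences from -1.84 to 2.45 points. After OVA (PM-OVA against Sham-OVA), 0 passed (0% over all windows), 6 had an unadjusted p under 0.05 (5.96% over all windows), and differences ran from -4.63 to 2.97 points. The difference between the arms in their response to OVA, tested as an interaction, passed at 0 windows (0% over all windows) with 5 at an unadjusted p under 0.05 (7.40% over all windows). The smallest adjusted p for the interaction was 0.554, at Tnfaip3 window 5, where methylation was 81.2% ± 1.27 in Sham, 82.1% ± 0.802 in Sham-OVA, 83.4% ± 1.34 in PM and 81.0% ± 1.60 in PM-OVA (interaction log2 ratio -0.30, SE 0.0910). At the DMR of Tnfaip3 the interaction was -1.83 points (log2 ratio -0.10, 95% interval -0.33 to 0.13), at that of Nfkbie 1.21 points (0.13, -0.17 to 0.42) and at that of Nfkbia -2.77 points (-0.16, -0.39 to 0.07), and each of these 95% intervals includes 0.

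Averaged over the windows of each gene, methylation changed after OVA at 8 of the 9 genes in Sham offspring (39.4% of 38163 genes) and at 7 in PM offspring (54.0% of genes). In Sham offspring 6 fell (27.5% of genes fell) and 2 rose (11.9% rose), and in PM offspring 6 fell (47.1%) and 1 rose (6.89%). With each library centred the counts were 5 fallen and 3 risen in both arms. Nfkbie had the largest fall, from 46.8% ± 0.795 to 41.8% ± 1.90 in Sham offspring and from 47.1% ± 0.867 to 41.8% ± 0.864 in PM offspring (limma adjusted p = 1.27e-06 and 1.50e-07), with no overlap. Tnfaip3 fell too, with differences of -2.82 and -4.47 points (adjusted p = 4.54e-05 and 2.15e-08), as did Nfkbia with -1.95 and -2.73 points (adjusted p = 0.00108 and 9.28e-06) and Nfkb1 with -1.91 and -2.25 points (adjusted p = 7.52e-06 and 2.18e-07; -1.20 points in PM offspring with libraries centred, adjusted p = 0.000214). With the median over windows in place of the mean, the calls of Nfkb1, Nfkb2 and Nfkbia were lost in both arms and that of Rela in PM offspring was lost, while a rise of Relb in PM offspring passed.

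The remaining gene means moved by less than 2 points in both arms, while those of Nfkbia and Nfkb1 did so in Sham offspring only. Rel fell, with differences of -1.12 and -1.51 points (adjusted p = 0.0141 and 0.000685; 0.00465 points and not passing in Sham offspring as the median over windows; -0.65 points in PM offspring with libraries centred, adjusted p = 0.0441), and so did Nfkb2, with -1.09 and -1.05 points (adjusted p = 0.0194 and 0.0149). The Nfkb2 call in Sham offspring was lost without Sham-OVA replicate 5, and with libraries centred both Nfkb2 calls were lost (-0.66 points, adjusted p = 0.208, and 0.000174 points). Nfkbiz rose by 1.82 points in Sham offspring (adjusted p = 0.000529), with a difference of 0.791 in PM offspring (adjusted p = 0.0728, passing without Sham replicate 4, which enters only through the shared spread). Relb rose by 1.04 points in Sham offspring (adjusted p = 0.0355, lost without Sham replicate 3, 6 or 7 or Sham-OVA replicate 1, 2, 4, 6 or 7), with 0.702 in PM offspring (adjusted p = 0.115), and Rela rose by 0.959 points in PM offspring (adjusted p = 0.0154), with 0.701 in Sham offspring (adjusted p = 0.0995, passing without Sham-OVA replicate 5). With each library centred these 3 genes passed in both arms: Nfkbiz differed by 1.77 points in PM offspring (adjusted p = 6.61e-05), Relb by 1.60 points in PM offspring (adjusted p = 0.000215) and Rela by 1.04 points in Sham offspring (adjusted p = 0.00106), so the calls made in 1 arm alone depend on the scaling. The median over the 9 genes was -1.12 and -1.51 points, beside -0.56 and -1.19 over all genes. No gene mean passed the interaction test, the smallest adjusted p being that of Tnfaip3 (-1.65 points, limma adjusted p = 0.462).

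**Figure D5:**
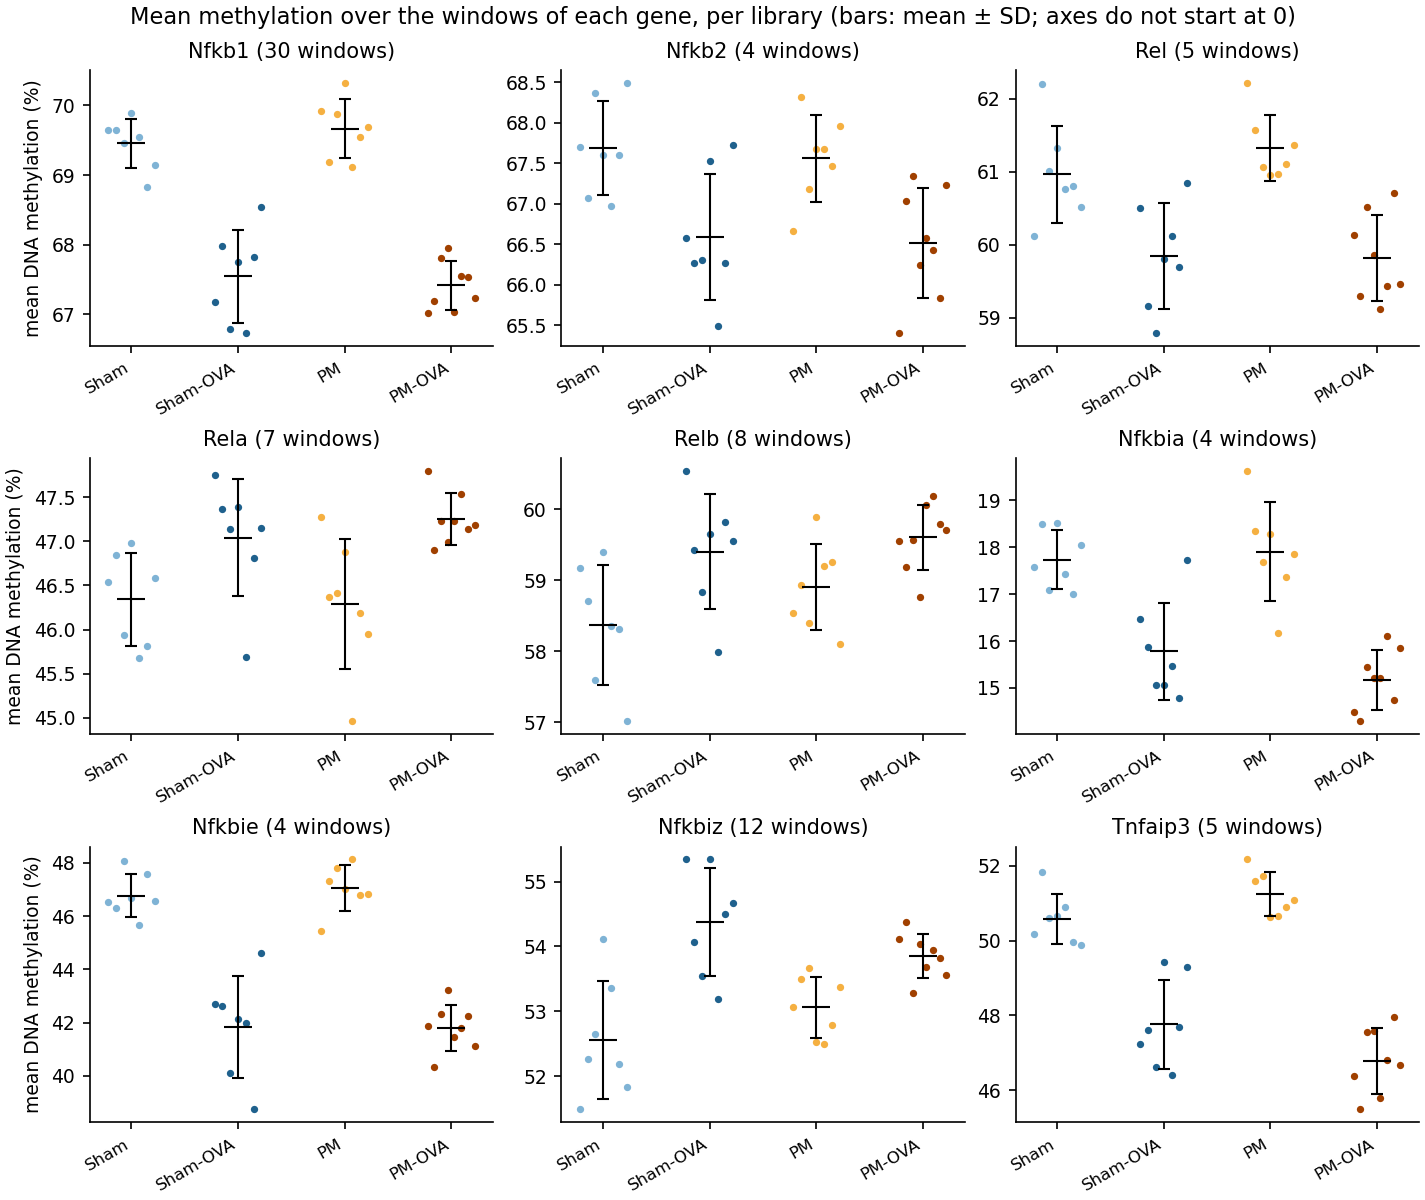
Mean methylation (%) over the windows of each gene in every library, by group, with the mean ± SD as black bars; the axes do not start at 0. Nfkb1, Nfkbie and Tnfaip3 are lower in every OVA library than in every saline library of the same arm, whereas the groups of Rela, Relb and Nfkbiz overlap.

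The wider pathway was read from 65 further genes, 63 of which had windows. In Sham offspring 99 of their 533 windows rose and 135 fell (43.9% passed), and in PM offspring 71 rose and 170 fell (45.2% passed). Over all windows 13.3% rose and 22.3% fell in Sham offspring and 9.26% rose and 34.8% fell in PM offspring. By role, 13 rose and 37 fell of 89 windows of other negative regulators in Sham offspring and 6 rose and 39 fell in PM offspring. The IkappaB kinases had 19 risen and 8 fallen of 83 windows in Sham offspring and 18 and 10 in PM offspring. Target genes had 14 risen and 30 fallen of 101 windows in Sham offspring and 7 and 45 in PM offspring, and receptors had 9 and 23 of 75 windows, then 9 and 30. Adaptors and signal carriers had 42 risen and 31 fallen of 169 windows, then 29 and 38, and the 16 windows of other IkappaB proteins had 2 risen and 6 fallen, then 2 and 8. No role was tested as a set.

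DMRs of the wider pathway numbered 14 in Sham offspring, 8 higher and 6 lower (of 533 windows, with 0.775% DMRs over all windows), and 7 in PM offspring, all lower (0.584% over all windows). The largest fall was at Map3k14, the kinase that starts the non-canonical pathway (chr11:103262795-103265074), from 60.5% ± 3.02 to 37.7% ± 5.91 in Sham offspring and from 62.2% ± 2.74 to 39.7% ± 4.10 in PM offspring (limma adjusted p = 1.34e-08 and 6.07e-09). Tnf, a target and activator of NF-kappaB (chr17:35198982-35201516), had differences of -14.3 and -14.8 points. Otulin, which removes linear ubiquitin chains and so restrains the pathway (chr15:27624939-27628562), had differences of -13.6 and -14.1 points. Rises of at least 10 points in Sham offspring included Bcl2l1, an anti-apoptotic target (11.5 points), and Bcl3, a nuclear IkappaB protein (10.9 points), and the same windows differed by 8.72 and 8.92 points in PM offspring, under the 10-point limit.

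The genes most like the 3 members with a DMR were read from gene means after subtracting each library's mean, by Pearson's r over all 29 libraries among 18956 genes with at least 3 windows. They are a description, given with no test, and all points share the same libraries and groups. Tnfaip3 was most like Dchs2 (r = 0.956), Cttnbp2 (0.951) and Ltbp1 (0.950). Nfkbie was most like Il21r, a cytokine receptor of lymphocytes (0.960), Rubcnl (0.952) and Tnfsf14, a ligand of the TNF family (0.950). Nfkbia was most like Epx, the peroxidase of eosinophils (0.861), Mthfd2l (0.859) and Gm44997 (0.853).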

How the data were processed

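Lung DNA methylation was measured by whole-genome enzymatic methyl-seq in 29 libraries. The deposited values are the percent of methylated cytosines per window and library, computed by the authors in SeqMonk over windows of CpGs, after trimming with Trim Galore and alignment to GRCm38 with DRAGEN. The read depth behind each window's value is unknown, since no counts were used here, so no counting interval is given, and no normalisation between libraries was stated. The study's own test of methylation was not repeated; here the deposited percentages were tested. Each percentage p was written as log2((p + 1)/(101 - p)), with an offset of 1, and fitted over the 4 groups in limma 3.58.1 (R 4.3.3), for 259167 of 260686 windows with at least 3 values in each group. P-values were adjusted by Benjamini-Hochberg over all windows, and passed under 0.05. Means over the windows of a gene were fitted likewise for 38163 genes. The fit was tested on simulated data. By rule, the windows named were every DMR and, per gene, the window at the gene start (or nearest to it) and that with the largest mean OVA difference; from the wider pathway, up to 3 DMRs with the largest rise and 3 with the largest fall per arm; and the 3 most alike genes of each member with a DMR. One window that the rule names is not reported here. Other windows were chosen after their values were seen. Exons, introns and starts came from GENCODE M21. Members, gene lists and rules were chosen with earlier results of these data known. Alternatives were centring, other thresholds and offsets, untransformed percentages, a replicate block, another prior, and leaving out each library.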

Additional observations from a re-analysis of the deposited data

Results flagged for a closer look

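A library stood far from the rest of its group in 12 of 103 groups of values examined. Most of the 12 flags were at gene starts, where the other libraries were near 0%. Chance gives about 1 flag in 20 groups (5.15 of 103) for values without such a floor. Values tied at or near 0% do not meet that condition, so these counts cannot be compared. In Nfkb1 window 1 they were Sham replicate 7 at 1.77% (others 0% to 0.143%), Sham-OVA replicate 7 at 0.248% (others 0%) and PM replicate 5 at 1.41% (others 0% to 0.0909%). In Rel window 1 they were Sham replicate 7 at 1.41% (others 0% to 0.0909%) and PM replicate 6 at 0.238% (others 0% to 0.0810%). Rela window 1 was 2.85% in Sham replicate 6 (others 0.667% to 1.56%). Relb window 1 was 0.747% in Sham-OVA replicate 3 (others 0%) and 1.03% in PM replicate 1 (others 0% to 0.344%). Tnfaip3 window 1 was 1.14% in Sham replicate 5 (others 0% to 0.414%).

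In methylated windows, Nfkb2 window 1 was 88.9% in PM-OVA replicate 3 (others 82.9% to 85.6%), and Nfkbiz window 1 was 38.1% in PM-OVA replicate 7 (others 36.5% to 37.2%). Nfkbie window 2 was 18.7% in PM replicate 1, the lowest unchallenged library there (others of PM 22.6% to 25.1%).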

How the results depend on the processing

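The 2 DMRs in Sham offspring became 15 with a minimum difference of 5 points and 31 with none, and ranged from 1 to 3 when each library was left out. The 2 in PM offspring became 16 and 35, ranged from 1 to 3, and fell to 1 with each library centred. At an adjusted p under 1e-06, 5 windows passed in place of 31 in Sham offspring and 7 in place of 35 in PM offspring. Without both PM-OVA libraries that carry another name tag, 31 and 37 windows passed. Taking the median over a gene's windows in place of the mean gave 4 gene calls in place of 8 in Sham offspring and 4 in place of 7 in PM offspring. Of single values, 2 reversed: Rel in Sham offspring (0.00465 points as the median over windows) and Nfkb2 in PM offspring (0.000174 points when centred). The cause was not tested. Whether replicate numbers pair the libraries was not settled. Over 42 same-number pairs the correlation of deviations ran from -0.0705 to 0.130 (median 0.0174), with 3 over 0.1. Over 273 other-number pairs it ran from -0.133 to 0.134 (median -0.00214), with 4 over 0.1. The numbers are those of the sample titles. Some library names carry another number, and pairing by those was not tested. With a replicate block there were 2 and 2 DMRs, 33 and 34 windows past the test, and 8 and 7 gene means. The depth behind each window is unknown, so no counting error can be set beside values near 0%.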
